A study of Drosophila melanogaster with 6 samples.

Results

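The odorant receptor (Or), gustatory receptor (Gr) and ionotropic receptor (Ir) genes of Drosophila melanogaster were followed in RNA from adult testes, a tissue outside the sensory organs in which these genes are best known. They were taken as the genes of the count files whose FlyBase symbol is Or, Gr or Ir followed by a digit, a rule that used the symbol and no measured value. Of 17559 genes counted, 186 met it, with 60 Or, 60 Gr and 66 Ir genes. Testes of males aged 3 to 5 days were sequenced from 3 libraries of miR-2b-1 overexpression and 3 of the control, each made from a pool of dissected testes. In the overexpression males, an actin5C-Gal4 driver, which acts in most cell types, switched on UAS-miR-2b-1 (a UASp line whose stock carries the TM3,Sb,Ser balancer). The driver stock carries the CyO balancer. The study describes the overexpression testes as bulged. Control males carried the same driver over w1118 and no UAS transgene, although the study's text in another place names OreR as the parent of the control. Males of both groups came from crosses at 28 °C. Parental strain, transgene and miR-2b-1 level therefore differ between the same groups and cannot be told apart. Nothing in the labels says that the pools came from separate crosses, so p-values measure the spread between these libraries, which may be technical.

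Odorant receptors are membrane channels of olfactory neurons that work together with a shared co-receptor, Orco. Gustatory receptors detect sugars, bitter compounds and carbon dioxide, and some respond to heat or light. Ionotropic receptors descend from ionotropic glutamate receptors and detect acids, amines, humidity and temperature, mostly with the co-receptors Ir8a, Ir25a, Ir76b or Ir93a. Many members of the 3 families lie in tandem groups of near copies. No sequence tables of these genes were used here, so no receptor sequence is shown.

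The libraries held 21202512 to 27789620 counts on genes under overexpression and 18047619 to 20282355 in the control. Of the 18 testis markers listed, 16 were matched and all 16 were detected, with a summed level of 9972 to 11249.6 CPM (counts scaled to the size of the library) under overexpression and 11460.4 to 12915 CPM in the control. The 16 listed genes of the accessory gland and duct took 0.0420%, 0.0877% and 0.728% of the counts in overexpression replicates 1, 2 and 3, and 0.633%, 0.0291% and 0.372% in control replicates 1, 2 and 3, so that libraries of the same group differed widely. Of this list, 1 gene, Acp95EF, had 0 counts in all 6 libraries. The summed level of 7 matched neuronal markers was 46.0 to 55.8 CPM under overexpression and 39.98 to 55.4 CPM in the control, with 4 of the 7 above 0 in log2 fold difference and 3 below. ChAT, of cholinergic neurons, was the 1 neuronal marker whose groups did not overlap, with 33, 33 and 46 counts under overexpression and 14, 14 and 8 in the control (log2 fold difference 1.15, edgeR adjusted p = 0.152). The general neuronal marker elav overlapped, with 31, 24 and 43 counts under overexpression and 37, 30 and 18 in the control. The summed level of 6 matched muscle markers was 102 to 118 CPM under overexpression and 171 to 356 CPM in the control, and 2 of them, Mhc and Mlc2, were called lower. The part of muscle and of neuronal RNA in the differences given here was not tested. With the accessory gland share as a covariate, a fit added after the data were seen, all 9 receptor genes that passed the main test were called again, and Ir54a and Ir75a were added. In whole testes, fewer cells of a type and less RNA per cell cannot be told apart.

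A gene was taken as detected where it had 10 or more counts in every library of at least one group. By this rule 44 of the 186 chemoreceptor genes were detected, which is 23.7%, beside 68.9% of all genes. By family, 10 of 60 Or genes, 16 of 60 Gr genes and 18 of 66 Ir genes were detected. Of the 186 genes, 30 were detected in both groups, 11 under overexpression alone and 3 in the control alone. Of all 17559 genes, 12103 were detected, with 573 (3.26% of the 17559) under overexpression alone and 169 (0.962%) in the control alone. A count of 10 stands for 0.349 to 0.584 CPM, with the lower values in the deeper overexpression libraries, so the rule is easier to meet under overexpression. With 0.5 CPM in every library of a group in place of 10 counts, 41 genes were detected, 8 of them under overexpression alone and 3 in the control alone. Just inside the threshold stood Gr43a, Ir84a and Or22a, each with a lowest count of 10 in the better group, and just outside it stood Ir52c, Ir64a and Or59b with 9. Inside it, Or22a had 16, 24 and 10 counts under overexpression and 12, 10 and 7 in the control. Outside it, Ir52c had 9, 11 and 19 counts under overexpression and 6, 7 and 5 in the control, and Ir64a, an acid receptor gene, had 10, 8 and 13 under overexpression and 9, 11 and 20 in the control. Of the 142 genes not detected, 17 had 0 counts in all 6 libraries, and the median total of the 142 over the 6 libraries was 11 counts. Of these 17 genes, 8 (Gr10a, Gr64b, Gr64c, Gr64e, Or10a, Or45b, Or46a and Or83a) share at least 90% of their exon bases with another annotated gene, as do 2 others not detected (Gr64d and Ir75d), and 0 of the 44 detected genes. How reads in shared bases were assigned is not stated, so a count of 0 in these genes does not set their level.

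The detected receptors were low beside most testis genes. Their levels per kilobase of annotated exon ranged from 0.147 to 10.8 CPM per kb, with a median of 0.858 CPM per kb, against 7.28 CPM per kb over 11902 detected genes with an exon length. The median was 1.02 CPM per kb for the 10 Or genes, 1.32 for the 16 Gr genes and 0.617 for the 18 Ir genes. The 5 highest were Gr22f, Gr22c, Ir7c, Ir41a and Gr32a.

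**Figure D1:**
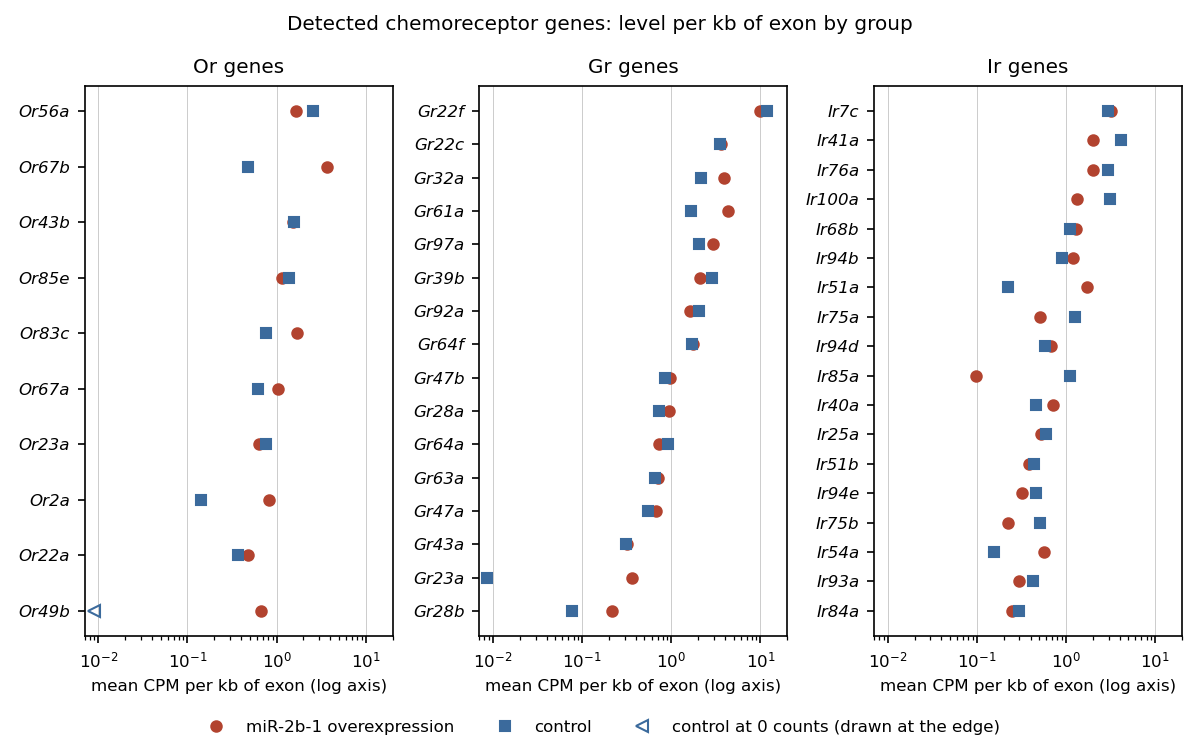
Mean level of the 44 detected receptor genes in CPM per kb of exon (horizontal log axis), with red circles for miR-2b-1 overexpression and blue squares for the control (3 libraries each). Gr22f stands highest at 9.78 CPM per kb under overexpression and 11.9 in the control, and for most genes the 2 marks lie close together, while Or67b, Or49b, Or2a, Gr23a, Ir51a and Ir85a are spread apart.

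All positions are on the dm6 (BDGP6) assembly. Gr22f (FBgn0041249, chromosome 2L, 1755253 to 1756451, minus strand) was the most abundant chemoreceptor transcript on both scales. It belongs to the Gr22 group, whose members are expressed in bitter-sensing neurons. It had 282, 255 and 312 counts under overexpression and 245, 281 and 215 counts in the control. These came to 11.1 ± 0.428 CPM under overexpression and 13.5 ± 0.940 CPM in the control (SD, n = 3 each), and the CPM values of the groups did not overlap. The log2 fold difference was -0.28 (SE 0.167, edgeR adjusted p = 0.491), which did not pass the test. Its relative Gr22c (FBgn0265138, chromosome 2L, 1790617 to 1791823, minus strand) had 93, 102 and 126 counts under overexpression and 65, 88 and 70 in the control, or 4.21 ± 0.555 CPM under overexpression and 4.06 ± 0.478 CPM in the control (SD, n = 3 each). The groups overlapped, with a log2 fold difference of 0.05 (edgeR adjusted p = 1) whose sign turned under some alternatives. Ir7c (FBgn0029966, chromosome X, 7874394 to 7876847), a member of a cluster of Ir7 genes linked to taste, had 222, 164 and 193 counts under overexpression and 114, 147 and 123 in the control. In CPM its groups overlapped (log2 fold difference 0.12, edgeR adjusted p = 0.930).

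Between miR-2b-1 overexpression and the control, 9 of the 186 receptor genes passed edgeR's quasi-likelihood test at an adjusted p under 0.05, which is 4.84%, beside 2.81% of all 17559 genes tested. Of these, 6 rose (Or67b, Or49b, Or2a, Gr61a, Gr23a and Ir51a), beside 1.29% of all genes, and 3 fell (Ir85a, Ir41a and Ir100a), beside 1.51% of all genes. The 3 called Or genes and the 2 called Gr genes all rose, while the 4 called Ir genes were 1 that rose and 3 that fell. An unadjusted p under 0.05 in edgeR was reached by 27 of the 186 genes and by 2588 of all 17559 genes, which is about the same share. Among the 149 receptor genes with counts in both groups, 69 had a log2 fold difference above 0 and 80 one below 0, with a median of -0.08, against 0.01 over all 14959 such genes. With genes at 0 counts in one group set at their lower bound, the median over 152 receptor genes was also -0.08. The summed level of all 186 genes was 113, 126 and 132 CPM under overexpression and 131, 122 and 120 CPM in the control, and the groups overlapped. The sum over the Ir genes did not overlap, with 43.2 to 43.7 CPM under overexpression and 53.9 to 55.9 CPM in the control. The 3 Ir genes called lower, Ir85a, Ir41a and Ir100a, and the 1 called higher, Ir51a, moved this sum in opposite directions. Their levels are given below. Whether the other Ir genes differ as a set was not tested. Gene by gene, all 3 overexpression libraries lay above all 3 control libraries for 15 of the 186 genes, beside 11.0% of all genes, and below them for 21, beside 8.83% of all genes. Of those 21 genes, 15 were among the 66 Ir genes, 5 among the 60 Or genes and 1 among the 60 Gr genes. The 15 genes that lay above were 6 Or, 6 Gr and 3 Ir genes. Of the 36 receptor genes without overlap in either direction, 19 were not detected.

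**Figure D2:**
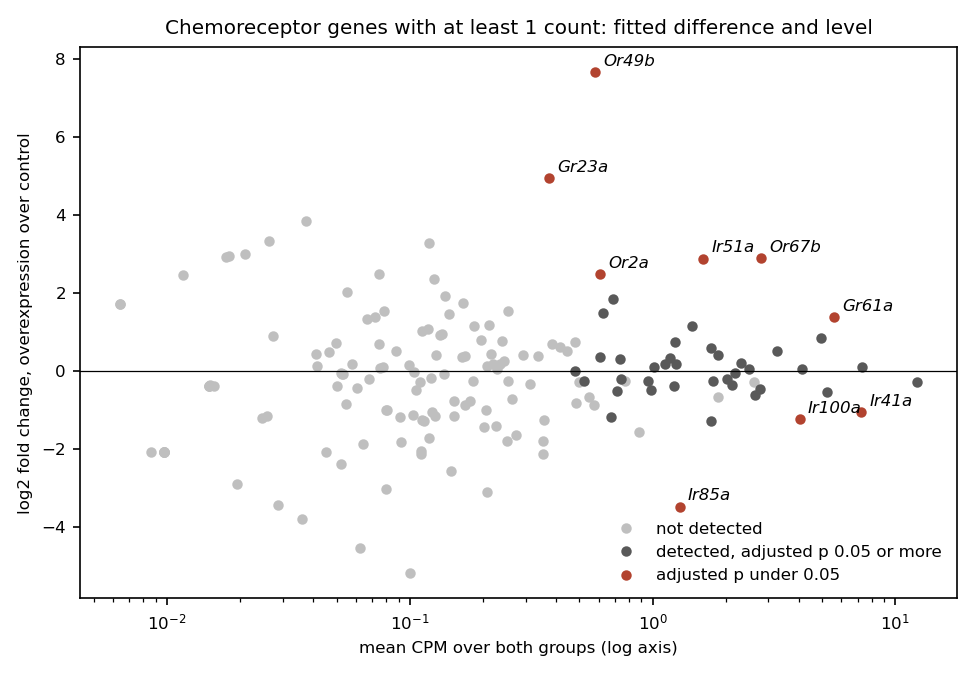
Log2 fold change of overexpression over control (vertical axis) against the mean CPM of both groups (horizontal log axis) for the 169 receptor genes with at least 1 count, with the 9 called genes in red and named. Genes that were not detected (light grey) scatter widely at low CPM, and Or49b, whose control libraries are all at 0, has a fitted value that depends on the prior count.

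Or67b had the lowest p of the receptor genes. It encodes an olfactory receptor of the antenna and of the larval olfactory organ. The gene (FBgn0036019) occupies 9627316 to 9629193 of chromosome 3L, minus strand. It had 92, 112 and 178 counts in the overexpression libraries and 11, 15 and 10 counts in the control libraries. Every overexpression library was above every control library. The means were 4.95 ± 1.34 CPM under overexpression and 0.653 ± 0.103 CPM in the control (SD, n = 3 each), a 7.58-fold difference with a log2 fold difference of 2.91 (SE 0.318, edgeR adjusted p = 2.10e-05). Of its 1362 exon bases, 125 overlap exon sequence of Cyp40 and 6 that of CG3335 on the other strand. Cyp40 had 130 CPM under overexpression and 124 CPM in the control. CG3335 had 8.71 CPM under overexpression and 9.81 CPM in the control, and neither was called.

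Or49b was seen under overexpression and had no count in the control. It encodes an odorant receptor of larval and adult olfactory neurons (FBgn0028963, chromosome 2R, 12842665 to 12844704, plus strand). It had 28, 28 and 32 counts under overexpression and 0 counts in each of the 3 control libraries. Against a floor of 3 counts per control library, its mean of 1.16 ± 0.104 CPM under overexpression (SD, n = 3) was higher by at least 7.02-fold (edgeR adjusted p = 0.000258). The floor covers counting error alone. No annotated gene overlaps Or49b. Its neighbour Cyp9h1, 107 bases away, had 0.211 CPM under overexpression and 0.0514 CPM in the control, and CG17575, 840 bases away, had 79.6 CPM under overexpression and 116 CPM in the control, and neither was called.

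Or2a (FBgn0023523, chromosome X, 2246231 to 2247567, plus strand), an odorant receptor gene of larval and adult olfactory neurons, had 22, 23 and 35 counts under overexpression and 3, 5 and 2 in the control. The groups did not overlap, with 1.04 ± 0.186 CPM under overexpression and 0.180 ± 0.0712 CPM in the control (SD, n = 3 each). The log2 fold difference was 2.48 (SE 0.545, edgeR adjusted p = 0.0169). The call rested on few reads. The edgeR adjusted p was 0.0568 without overexpression replicate 1, 0.0943 without overexpression replicate 2 and 0.0537 without control replicate 1, and over its 14 alternatives, 4 of which ended the call, it ranged from 0.00930 to 0.0943. The gene lies 190 bases from fs(1)K10 and 27 bases from crn, neither of which was called.

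Gr61a was the most abundant of the receptor genes that rose. It belongs to the sugar receptor subfamily and is known as a glucose receptor. The gene (FBgn0035167, chromosome 3L, 841451 to 843701, plus strand) had 203, 197 and 214 counts under overexpression and 53, 67 and 50 in the control. The libraries within each group lay close together, with 8.09 ± 0.790 CPM under overexpression and 3.09 ± 0.305 CPM in the control (SD, n = 3 each). The difference was 2.62-fold, with a log2 fold difference of 1.38 (SE 0.219, edgeR adjusted p = 0.00107). It was past the threshold in each of its 15 alternatives, with adjusted p from 1.45e-05 to 0.0225. The flanking genes JMJD5, 91 bases away, and Cep290, 225 bases away, were not called.

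Gr23a, a candidate bitter taste receptor gene with 2 annotated transcripts (FBgn0041248, chromosome 2L, 2669823 to 2672186, plus strand), had 21, 13 and 23 counts under overexpression and 0, 1 and 0 in the control. The control total of 1 count sets the size of the difference poorly. The ratio of the summed counts, scaled by library size, was 40.8, with an exact 95% counting interval from 7.03 to 1638. The edgeR adjusted p was 0.00452. The fitted log2 fold difference ranged from 4.51 to 7.05 when each library was left out in turn, with the highest value without control replicate 2, which holds the 1 count. The call held in each of these fits, and over its 14 alternatives the adjusted p ranged from 0.000903 to 0.0558, with the call lost in 1.

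Ir51a (FBgn0033997, chromosome 2R, 15204654 to 15206334, plus strand) is annotated as a pseudogene, and it was the 1 detected pseudogene among the 7 receptor pseudogenes. It had 62, 67 and 90 counts under overexpression and 3, 11 and 7 in the control. Each overexpression library was above each control library, with 2.86 ± 0.410 CPM under overexpression and 0.380 ± 0.202 CPM in the control (SD, n = 3 each). The log2 fold difference was 2.89 (SE 0.409, edgeR adjusted p = 0.000395). The intact neighbour Ir51b (FBgn0050081, 15207993 to 15209786, plus strand) had 19, 11 and 24 counts under overexpression and 9, 15 and 19 in the control. For Ir51b the groups overlapped, with a log2 fold difference of -0.19 (SE 0.472, edgeR adjusted p = 1). How reads that fit both genes were counted is not stated. On the other side of Ir51a, CG11807 lies 188 bases away on the same strand. It had 56.5 CPM under overexpression and 71.5 CPM in the control and was not called.

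Ir85a had the largest fall among the called receptor genes. The gene (FBgn0037630, chromosome 3R, 8794684 to 8796966, plus strand) had 5, 5 and 6 counts under overexpression and 50, 50 and 31 in the control. The groups were far apart, with 0.210 ± 0.0175 CPM under overexpression and 2.38 ± 0.496 CPM in the control (SD, n = 3 each). The control level was 11.3 times that under overexpression, a log2 fold difference of -3.47 (SE 0.412, edgeR adjusted p = 5.44e-05). Ir85a lies inside the span of Pif1A and Pif1B, on the strand opposite to theirs, and 232 of its 2139 exon bases overlap their exons. Pif1A had 138 CPM under overexpression and 145 CPM in the control and was not called.

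Ir41a encodes a receptor subunit that, with Ir76b, detects polyamines. The gene (FBgn0040849) spans chromosome 2R from 4917519 to 5021955 on the plus strand. It had 104, 128 and 123 counts under overexpression and 177, 190 and 166 in the control. The overexpression libraries averaged 4.71 ± 0.981 CPM and the control libraries 9.73 ± 0.0334 CPM (SD, n = 3 each), with the control libraries very close together. The log2 fold difference was -1.05 (SE 0.211, edgeR adjusted p = 0.00860). The edgeR adjusted p was 0.0675 without overexpression replicate 1 and 0.0564 without control replicate 2, and ranged from 0.000605 to 0.0675 over its 15 alternatives. Its partner Ir76b was not detected, with 5, 3 and 12 counts under overexpression and 2, 4 and 6 in the control. Among the 17 flanking genes of the 9 called receptors that were counted, 1 was called, and this was lncRNA:CR44105, 10040 bases from Ir41a, with 23.3 CPM under overexpression and 6.98 CPM in the control.

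Ir100a (FBgn0039879, chromosome 3R, 31800963 to 31802774, plus strand) had 60, 39 and 90 counts under overexpression and 89, 99 and 120 in the control. In CPM the groups did not overlap, with 2.41 ± 0.686 CPM under overexpression and 5.66 ± 1.17 CPM in the control (SD, n = 3 each). The log2 fold difference was -1.23 (SE 0.273, edgeR adjusted p = 0.0191). It lost its call in 5 of 15 alternatives. The edgeR adjusted p was 0.108 and 0.169 without overexpression replicates 1 and 2, and 0.0609 and 0.0688 without control replicates 2 and 3, within a range of 0.00172 to 0.169 over its 15 alternatives. Ir100a lies within the span of CG42233, on the other strand and with no exon overlap, and CG42233 was not called (log2 fold difference 0.65, edgeR adjusted p = 0.161).

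**Figure D3:**
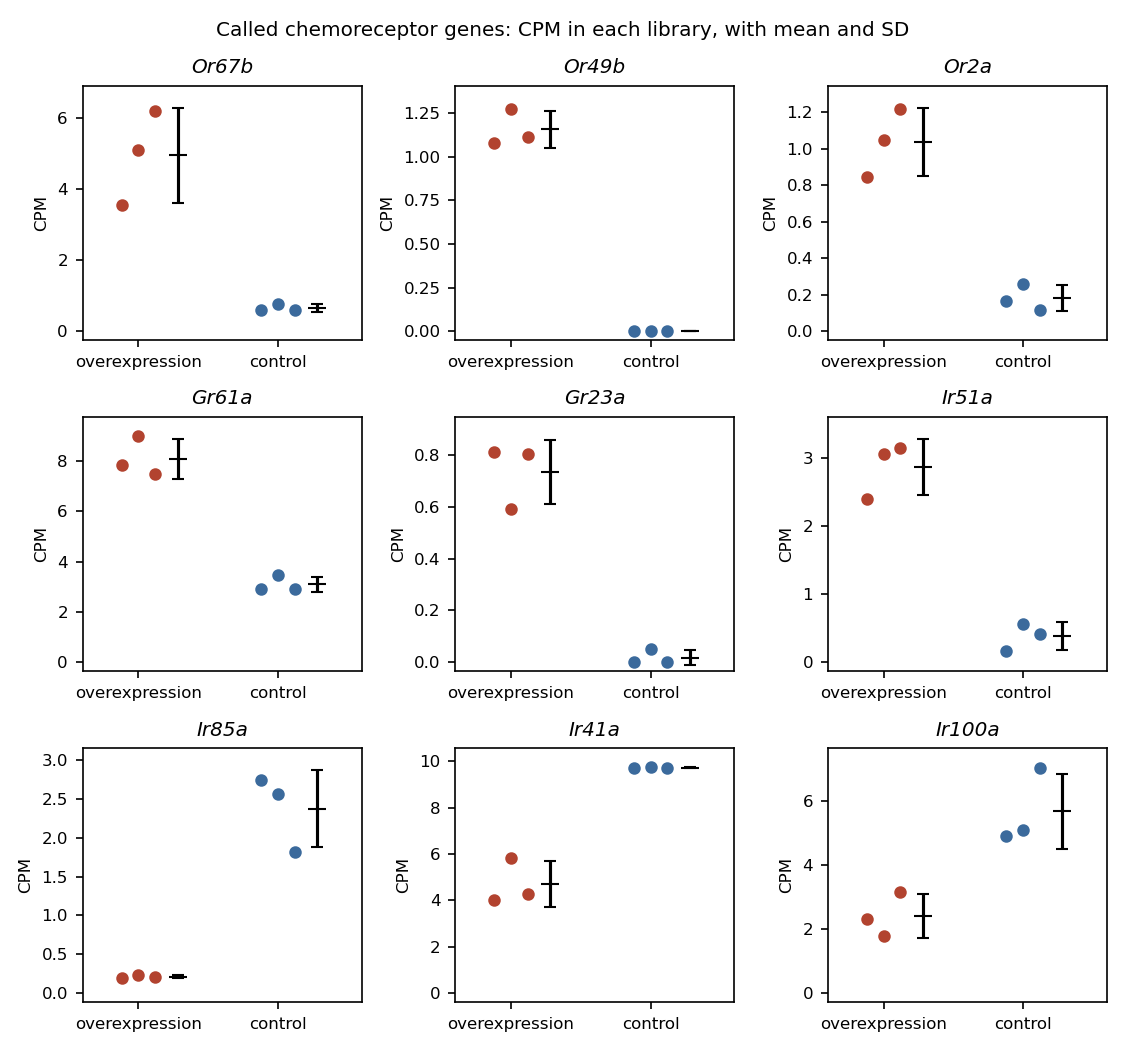
CPM (vertical axes, each from 0) of the 9 called receptor genes in every library, with red points for the 3 miR-2b-1 overexpression libraries at the left of each panel and blue points for the 3 control libraries at the right. Black marks give the mean and SD, and in all 9 panels the points of the groups do not overlap, with Or49b at 0 in each control library.

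A further 8 detected receptor genes had CPM values that did not overlap between the groups but did not pass the test. With called and undetected genes included, the groups did not overlap for 36 of the 186 receptor genes. This is about the same share as over all genes, where it held for 3490 of 17559 (19.9%). Counted in either direction, lack of overlap therefore does not set the 186 genes as a whole apart. The families differed in direction, as given above, and that difference was not tested. Of the 8 genes, Ir75a (FBgn0036757), whose product with Ir8a detects acetic acid, came closest to passing the test. It had 31, 22 and 25 counts under overexpression and 32, 51 and 52 in the control, or 1.02 ± 0.163 CPM under overexpression and 2.47 ± 0.654 CPM in the control (SD, n = 3 each). Its log2 fold difference was -1.27 (SE 0.334, edgeR adjusted p = 0.0506), and the adjusted p was 0.0372 without control replicate 1 and 0.228 at most when another library was left out. Gr32a, a receptor gene of taste neurons that inhibits courtship between males, had 179, 117 and 197 counts under overexpression and 78, 74 and 42 in the control. This was 6.37 ± 0.898 CPM under overexpression and 3.51 ± 0.948 CPM in the control (SD, n = 3 each), a log2 fold difference of 0.86 (SE 0.252, edgeR adjusted p = 0.0862). Of its exon bases, 164 overlap the abundant gene CG6230 on the other strand, at 554 CPM under overexpression and 528 CPM in the control.

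The other genes of this kind were Ir54a, Gr28b, Or83c, Or56a, Ir76a and Gr22f. Or83c, the farnesol receptor gene, had 46, 42 and 68 counts under overexpression and 6, 22 and 21 in the control, with a log2 fold difference of 1.17 (SE 0.417, edgeR adjusted p = 0.174). Or56a, the receptor gene for geosmin, had 49, 47 and 65 counts under overexpression and 60, 57 and 57 in the control, which in CPM gave a log2 fold difference of -0.60 (SE 0.266, edgeR adjusted p = 0.299). Gr28b, whose isoforms serve warmth and light sensing, had 20, 26 and 24 counts under overexpression and 4, 9 and 5 in the control (edgeR adjusted p = 0.156). Ir54a had 23, 30 and 28 counts under overexpression and 10, 1 and 5 in the control (edgeR adjusted p = 0.128), and 506 of its 1905 exon bases overlap sub. The gene sub, on the other strand, had 80.7 CPM under overexpression and 58.3 CPM in the control and was not called. Its part in the counts of Ir54a was not tested. Ir76a, an amine receptor gene, had 4.26 ± 0.895 CPM under overexpression and 6.19 ± 1.26 CPM in the control (SD, n = 3 each), with an edgeR adjusted p of 0.314. Of its 2109 exon bases, 297 overlap CG14102 on the other strand, at 2.19 CPM under overexpression and 1.55 CPM in the control and not called.

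The remaining 27 detected genes overlapped between the groups, and none of them was called by edgeR or DESeq2. Of these 27, Ir75b alone reached an unadjusted p under 0.05 in edgeR. Among the Or genes these were Or22a, Or23a, Or43b, Or67a and Or85e, with 0.527 to 2.23 CPM on average in the control. Of the 1412 exon bases of Or43b, 575 overlap Cul1 on the other strand. Or23a shares 69 of 1363 with Prosbeta4R2 on the same strand. The part of these overlaps in the counts was not tested. Or67a had the largest difference of the 27 above 0, with 35, 47 and 34 counts under overexpression and 13, 24 and 14 in the control (edgeR adjusted p = 0.404). Among the Gr genes, Gr97a had 91, 119 and 75 counts under overexpression and 51, 64 and 34 in the control (edgeR adjusted p = 0.491). Gr39b had 43, 72 and 59 counts under overexpression and 64, 63 and 48 in the control. Gr43a, the fructose receptor gene, had 11, 15 and 10 counts under overexpression and 10, 8 and 8 in the control. Ir40a, needed for sensing dry air, had 53, 59 and 46 counts under overexpression and 17, 35 and 24 in the control (edgeR adjusted p = 0.454). Ir84a, which in the fly nose responds to food odours and promotes courtship, had 12, 9 and 16 counts under overexpression and 10, 10 and 11 in the control. Gr28a, Gr47a, Gr47b, Gr92a, Ir68b, Ir94b, Ir94d and Ir94e had log2 fold differences from -0.51 in Ir94e to 0.42 in Ir94b.

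The co-receptors that the receptors work with were unevenly present. Orco, which is not in the set of 186 because its symbol has no digit, had 55, 34 and 49 counts under overexpression and 24, 26 and 14 in the control. In CPM the groups did not overlap, yet the log2 fold difference of 0.63 (SE 0.346, edgeR adjusted p = 0.438) did not pass the test. Ir25a, the broadest Ir co-receptor, had 51, 46 and 47 counts under overexpression and 26, 55 and 38 in the control, and the groups overlapped. Ir93a, a co-receptor for humidity and temperature, had 27, 15 and 21 counts under overexpression and 30, 15 and 18 in the control. Ir8a, the co-receptor of the acid receptors, had 4, 2 and 1 counts under overexpression and 0, 1 and 0 in the control and was not detected.

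Of the sugar and carbon dioxide receptor genes, some members were detected and others were not. Of the sugar receptors, Gr61a, Gr64a and Gr64f were detected, while Gr5a, the trehalose receptor gene, had 2, 1 and 3 counts under overexpression and 4, 0 and 5 in the control. Of the 1490 exon bases of Gr5a, 1108 are shared with an antisense gene. Gr63a, a subunit of the carbon dioxide receptor, had 36, 21 and 23 counts under overexpression and 11, 19 and 23 in the control. Its obligate partner Gr21a had 7, 1 and 2 counts under overexpression and 2, 2 and 8 in the control and was not detected.

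Most called receptor genes stood away from the tandem groups, as did most detected ones. Of the 186 genes, 89 lay within 5 kb of another member, in 32 groups, and 14 of these 89 (15.7%) were detected, beside 30 of the 97 (30.9%) that lay alone, a difference that was not tested and that includes genes with shared exons. Of the 9 called genes, 8 lay alone and 1, Ir51a, lay in a group, beside 30 and 14 of the 44 detected genes. This difference was not tested either. In 6 of the groups some but not all members were detected. In the Gr64 group of sugar receptors on chromosome 3L, Gr64a had 26, 27 and 28 counts under overexpression and 29, 27 and 20 in the control. Gr64f, at the other end of the group, had 40, 54 and 105 counts under overexpression and 50, 43 and 41 in the control. The 4 genes between them cannot be read as absent. Gr64b and Gr64c, each with 0 counts in all 6 libraries, are annotated with the same 2858 exon bases on the same strand. Gr64d, with 1 count in all under overexpression and 4 in the control, and Gr64e, with 0, have 79 and 27 exon bases that no other gene covers. In the Gr22 group of 5 genes, from which Gr22f lies apart, Gr22c alone was detected, at 3.65 CPM per kb under overexpression and 3.53 in the control, while each of the other 4 had at most 8 counts in any library. In the Ir7 group of 5 genes, Ir7c alone was detected. The 3 genes of the Ir75 group, Ir75a, Ir75b and Ir75c, all had log2 fold differences below 0, at -1.27, -1.16 and -0.80, and none was called (edgeR adjusted p of 0.0506, 0.339 and 0.565).

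**Figure D4:**
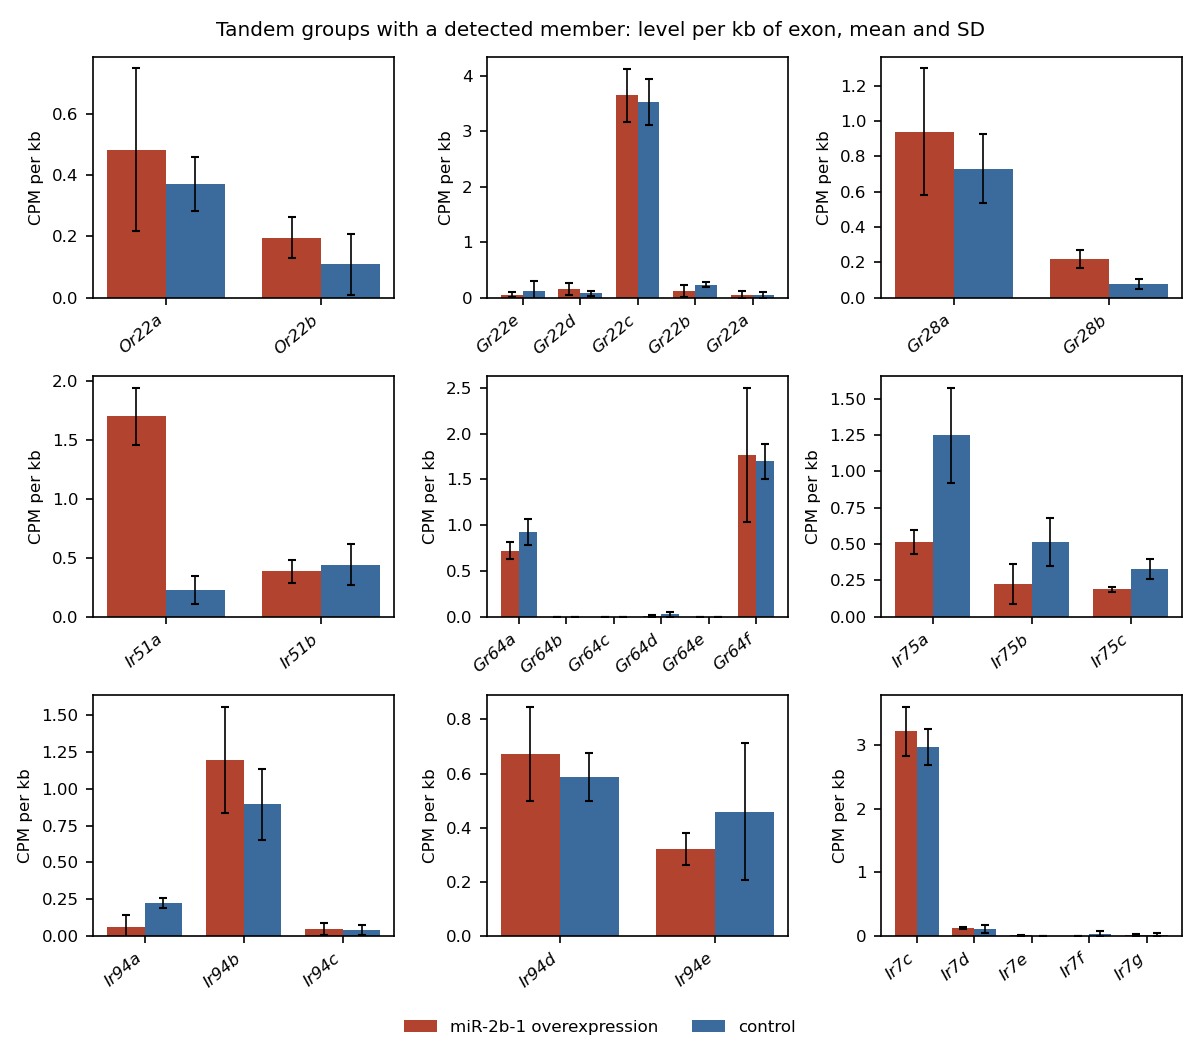
Level in CPM per kb of exon (vertical axes from 0) of the genes in the 9 tandem groups with a detected member, as red bars for miR-2b-1 overexpression and blue bars for the control, with SD over 3 libraries each. Gr22c, Ir7c and Ir94b stand alone among their neighbours, and Ir51a is high under overexpression only, beside an Ir51b that overlaps between groups. Between Gr64a and Gr64f, Gr64b shares exons with Gr64c and Gr64d with Gr64e, so their bars at or near 0 do not set a level.

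Or59b and Or59c differed more between libraries of a group than between the groups. They are olfactory receptor genes next to each other on chromosome 2R, Or59b (FBgn0034865) from 23470165 to 23471775 and Or59c (FBgn0034866) from 23472300 to 23473753, both on the minus strand, and both lie within the span of CG43795 on the other strand. Or59b had 9, 19 and 168 counts under overexpression and 100, 7 and 48 in the control. Or59c had 5, 10 and 103 counts under overexpression and 80, 4 and 39 in the control. Overexpression replicate 3 and control replicates 1 and 3 were high for both genes, and these are the libraries in which the accessory gland list took 0.728%, 0.633% and 0.372% of the counts. In the other 3 libraries that list took 0.0291% to 0.0877%, and its part in the levels of these genes was not tested. The rule on detection left both genes out because in each group at least 1 library fell below 10 counts. Their log2 fold differences were -0.27 and -0.67 (SEs 1.45 and 1.51), and neither was called (edgeR adjusted p of 1 and 0.993).

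**Figure D5:**
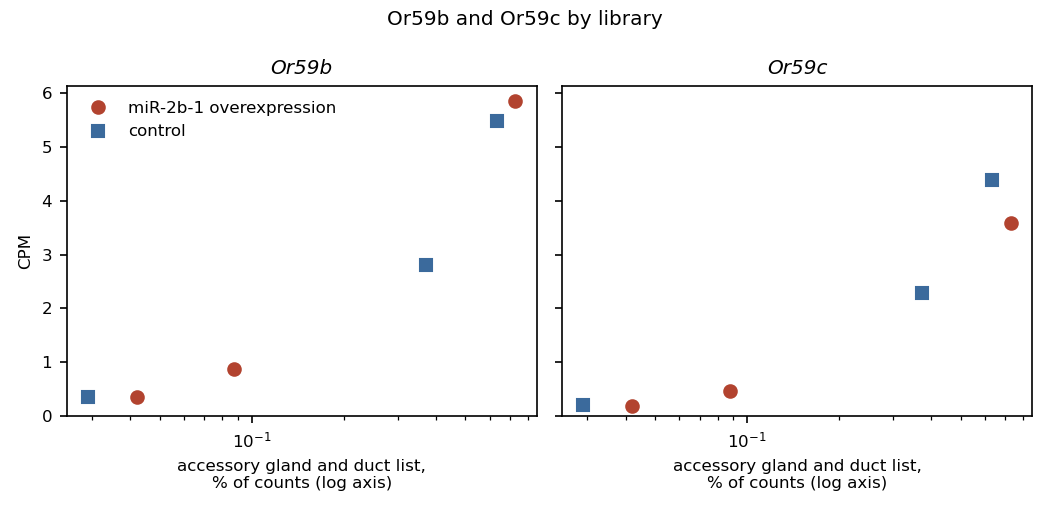
CPM of Or59b (left) and Or59c (right) in each of the 6 libraries (vertical axis from 0) against the share of counts taken by the accessory gland list (horizontal log axis), with red circles for overexpression and blue squares for the control. Both genes are above 2 CPM in the 3 libraries with the largest shares, 2 of them control libraries, and below 1 CPM in the other 3.

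Overlap with other genes could have moved receptor counts, since the study does not state whether strand was used in counting. Exon sequence of another annotated gene overlapped the exons of 10 of the 44 detected and 22 of the 142 other receptor genes. Of the 9 called genes, 2 had such an overlap, Or67b and Ir85a, and the overlapping genes were not called. By chromosome, 10 of 52 receptor genes on 2R, 11 of 31 on 2L, 10 of 35 on 3L, 11 of 43 on 3R and 2 of 25 on X were detected. The called genes lay on all 5 arms, with 3 on 2R, 2 on 3L, 2 on 3R, 1 on 2L and 1 on X.

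Other genes of chemosensation were followed beside the receptors, namely 129 genes of 6 kinds. Of these, 58 were detected, or 45.0%, beside 68.9% of all genes, and 5 were called, or 3.88%, beside 2.81% of all genes. Of the 5, 2 rose and 3 fell. Of 52 odorant-binding protein genes, which encode small secreted carriers, 1 was called. This was Obp56i (FBgn0043532), with 1144, 901 and 1247 counts under overexpression and 409, 440 and 305 in the control, a log2 fold difference of 1.03 (SE 0.160, edgeR adjusted p = 0.000891). Gene by gene, all overexpression libraries lay above all control libraries for 3 of the 52 Obp genes and below them for 8. Over all genes these shares were 11.0% and 8.83%. Among the 8, Obp44a (1613 CPM under overexpression, 2608 CPM in the control) and Obp99a (468 and 675 CPM) were called lower by DESeq2, not by edgeR. Of 29 pickpocket genes, which encode sodium channels of the DEG/ENaC family, 1 rose and 2 fell. The gene ppk19 had 79, 86 and 86 counts under overexpression and 14, 12 and 9 in the control, a log2 fold difference of 2.37 (SE 0.325, edgeR adjusted p = 0.000274). The gene ppk6 had 364, 502 and 581 counts under overexpression and 1082, 992 and 710 in the control, a log2 fold difference of -1.41 (SE 0.197, edgeR adjusted p = 0.000490). The gene ppk16 had 1, 0 and 1 counts under overexpression and 8, 11 and 8 in the control (edgeR adjusted p = 0.0218). It lost its call in 5 of 13 alternatives, with an edgeR adjusted p of 0.0964 without overexpression replicate 1, 0.118 without overexpression replicate 2 and 0.122 without control replicate 2, within a range of 0.00826 to 0.122. Of 14 glutamate receptor genes, GluRIIB of the neuromuscular junction fell, with 14, 6 and 15 counts under overexpression and 44, 58 and 84 in the control (log2 fold difference -2.91, SE 0.385, edgeR adjusted p = 0.000189). The summed muscle markers were lower under overexpression too, and their part in the fall of GluRIIB was not tested. None of the 3 Orco and SNMP genes, the 20 CheA and CheB genes or the 11 TRP channel genes was called by edgeR or DESeq2, with 1, 2 and 3 of them at an unadjusted p under 0.05. Leaving out overexpression replicate 3 or control replicate 3 raised the 5 partner calls to 9 and 8, with 4 and 2 Obp genes among those gained. In both fits 2 of the called genes rose, while 7 and 6 fell, and every gained gene fell.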

How the data were processed

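Testis RNA was sequenced from 3 miR-2b-1 overexpression and 3 control samples. The authors removed adapters and low-quality reads, aligned the paired reads with RNA STAR to the dm6 (BDGP6) assembly, counted them per gene with featureCounts on an Ensembl annotation, and deposited raw counts per gene without normalization. The strand setting and the handling of reads with several places are not given in the sources used here. A deposited table of the authors' comparison (log2 fold changes, log2 CPM, F, p-values) and one with 6 columns of per-sample values were not used. Rows that name no gene numbered 0.

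Symbols, positions and exon lengths came from Ensembl release 115 of the same assembly, newer than the annotation counted on, which matched 17253 of 17559 identifiers. The others held 3.08% of counts. All genes were fitted with edgeR 4.0.16 in R 4.3.3 (TMM, quasi-likelihood test with robust prior and the older method, group as the only term, no filter, Benjamini-Hochberg adjusted p under 0.05). CPM values are scaled by TMM. A standard error is the log2 fold change divided by the square root of F. Counting intervals and floors cover counting error only. No library repeated another (chi-square over degrees of freedom at least 24.6 within a group). The fit was tested on simulated data. Alternatives were other normalizations, filters and prior settings, DESeq2 1.42.0, a replicate block, each replicate left out, other detection minimums and, added after seeing the data, the accessory gland share as a covariate.

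Members and lists were chosen with earlier results of these data known. Genes named were those called, those detected without overlap of the groups, the 5 highest per kb, listed co-receptors and those at the detection threshold. Or59b, Or59c, Obp44a, Obp99a, the tandem groups and examples among the other detected genes were chosen after their values were seen.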

Additional observations from a re-analysis of the deposited data

How the results depend on the processing

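The count of called receptor genes was 9. It was 5 among the 30 genes with at least 10 counts in every sample, a filter that leaves out Gr23a, Ir51a, Ir85a, Or2a and Or49b. It ranged from 6 to 9 when each library was left out, and from 7 to 11 under the other alternatives. Or67b, Or49b, Gr61a, Ir51a and Ir85a were called in each fit that held them. Over the 9 genes, 118 values kept their call and 12 lost it, with 0 reversed. The log2 fold change of Gr22c, not called, was -0.025 with upper-quartile normalization, -0.012 without overexpression replicate 2, -0.034 without control replicate 1, and 0.15 at most when each library was left out. Ir75a was called with RLE and upper-quartile normalization, with at least 10 counts in every sample, with the accessory gland covariate and without control replicate 1, and Ir54a with that covariate. Gr59f was called without control replicate 3.

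The count of detected genes was 44. It was 67 at 5 counts, 34 at 20 counts, and 45 to 50 when each library was left out. Of the partner genes, 5 were called, 2 with at least 10 counts in every sample, and 4 to 9 when each library was left out. Of these 5, ppk16 lost its call in 5 of the 13 fits that held it and the other 4 in none. The cause was not tested, beyond the fewer genes that the filter leaves.

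With the replicate block, 7 receptor genes were called, all among the 9, without Gr23a (edgeR adjusted p = 0.0558) and Or2a (0.0700), and 4 partner genes, without ppk16. The deviations from the group means of same-numbered samples had correlations of -0.56, 0.38 and 0.52, so the numbers were not taken as pairs, and 2 of the 6 samples correlated best with their own number. For many of the 142 genes not detected, a difference was not detectable at this depth.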
